A study of Mus musculus with 2 samples.

Results

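The genes described here are Mir124a-1, Mir124a-2 and Mir124a-3, and Mir9-1, Mir9-2 and Mir9-3, the loci of the neural microRNAs miR-124 and miR-9. They were taken by name from the GENCODE M21 annotation, and they are 6 of the 2202 miRNA genes that the count tables list. MicroRNA sequencing had been carried out on total RNA of the hippocampus (the label reads "layer of hippocampus") of B6CASTF1/J mice, all male and 14 days old. B6CASTF1/J animals are hybrids with one C57BL/6J and one CAST/EiJ parent. There was 1 group of 2 libraries, named as biological replicates 1 and 2, and the label of each gave 3 males by number. Nothing was treated or deleted in either, so the values describe levels within this tissue and the difference between the libraries. Both carry 1 donor identifier and no statement on pooling, so any spread or p-value measures these samples and may be technical in part.

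A microRNA is cut from a hairpin precursor, and either arm of the hairpin (named 5p and 3p) can be loaded into Argonaute, where bases 2 to 8, the seed, pair with target messages. miR-124 is the classic neuron-specific microRNA and represses transcripts that neurons do not use, among them Ptbp1, a splicing regulator of non-neuronal cells. miR-9 is made in neural progenitors and in neurons, and both its arms are used: the 5p arm represses Rest and Nr2e1, the 3p arm Rcor1, the partner of Rest. Rest in turn represses the miR-124 and miR-9 genes outside the nervous system. Each of these microRNAs is encoded at 3 separate loci, and this bears on any count made per gene.

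The miR-9 sequences show what the loci share. Both mature arms, as RefSeq gives them on GRCm38.p6, are the same at Mir9-1, Mir9-2 and Mir9-3, and no other mature microRNA in that table had either seed. Capitals mark the seed:
mmu-miR-9-5p: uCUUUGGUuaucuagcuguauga
mmu-miR-9-3p: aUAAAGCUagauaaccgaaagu

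The hairpins differ outside the arms, which are in capitals here, and the lines are shown because these lower-case bases are all that can tell the loci apart:
Mir9-1: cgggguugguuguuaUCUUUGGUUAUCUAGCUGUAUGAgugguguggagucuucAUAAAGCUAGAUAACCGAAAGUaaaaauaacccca
Mir9-2: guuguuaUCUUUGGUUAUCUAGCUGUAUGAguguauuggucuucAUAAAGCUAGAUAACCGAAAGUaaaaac
Mir9-3: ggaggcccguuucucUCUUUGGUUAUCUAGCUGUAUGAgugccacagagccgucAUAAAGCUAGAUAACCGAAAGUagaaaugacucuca

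Mir9-1 (ENSMUSG00000106493.1) lies on the plus strand of mm10 at chr3:88215598-88215686, in an intron of the lincRNA gene Gm3764. Mir9-2 (ENSMUSG00000065424.2) lies at chr13:83738814-83738885 in an exon of the lincRNA gene C130071C03Rik, and Mir9-3 (ENSMUSG00000093238.1) at chr7:79505264-79505353 in an intron of Mir9-3hg. In end-to-end alignments, with gaps counted as positions, the hairpins of Mir9-1 and Mir9-2 were identical at 70 of 89 positions. Those of Mir9-1 and Mir9-3 were identical at 71 of 90, and those of Mir9-2 and Mir9-3 at 64 of 90. The annotated hairpin of Mir9-2 has only 72 bases, against 89 for Mir9-1 and 90 for Mir9-3. Its missing ends count as gaps, so these values do not rank the likeness of the pairs.

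The miR-124 genes are spread in the same way. Mir124a-1 (ENSMUSG00000065597.1) lies at chr14:64590657-64590741 in an exon of Mir124a-1hg, a long non-coding RNA also known as Rncr3. Mir124a-2 (ENSMUSG00000093073.1) lies at chr3:17795662-17795770, partly in an exon of Mir124-2hg. Mir124a-3 (ENSMUSG00000065454.2) lies at chr2:180894040-180894107, where its last 3 bases overlap the lincRNA gene Gm27032 on the same strand.

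Few reads were counted on any of the 6 genes. Replicate 1 had 279 counts on all of them together and replicate 2 had 285, which is 73.5 and 112 counts per 1000000 counts on miRNA genes (CPM), or 92.5 ± 26.9 CPM (SD, n = 2). They ranked from 222nd to 574th of the 2202 genes by mean CPM. The libraries held 3793934 and 2554997 counts on miRNA genes, so that 1 count stood for 0.264 and 0.391 CPM, and 3 counts, the limit that a count of 0 allows, for 0.791 and 1.17 CPM. Intervals given below are 95% exact binomial intervals of a single library and cover counting error only, since amplified reads are not independent molecules. In RNA of whole tissue, fewer cells of a type and less RNA per cell cannot be told apart.

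The tissue itself carried neuronal microRNAs at high levels. All 12 genes of a list of neuronal microRNAs with a single locus reached 2 CPM in each library, and the list held 11.9% and 11.2% of counts. The larger part of that share was 1 gene, Mir139, with 255792 and 194474 counts in replicates 1 and 2. The lowest of the list, Mir153, had a mean of 78.5 CPM. Of 10 genes that mark other organs, 5 had 0 counts in both libraries and 5 reached 2 CPM in each, the highest at 340 CPM. All genes of the oligodendrocyte, microglial, vessel and red cell lists reached 2 CPM in each library too. So did 7 of 9 astrocyte or glial genes, 4 of 7 choroid or ciliated genes and 19.3% of all miRNA genes. Lists of glial, vessel, microglial, red cell and choroid or ciliated markers held between 0.00754% and 1.43% of counts in either library. Their part in the members' counts was not tested.

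miR-9 reads were counted on 2 of its loci above the detection minimum. Mir9-3 was the highest member, with 212 counts in replicate 1 and 216 in replicate 2, or 55.9 CPM (48.6 to 63.9) and 84.5 CPM (73.6 to 96.6), a mean of 70.2 ± 20.3 CPM (SD, n = 2). Mir9-1 had 44 and 58 counts, 11.6 CPM (8.43 to 15.6) and 22.7 CPM (17.2 to 29.3). Mir9-2 had 6 and 2 counts, 1.58 CPM (0.580 to 3.44) and 0.783 CPM (0.0948 to 2.83). The order Mir9-3, Mir9-1, Mir9-2 was the same in both libraries and their intervals did not overlap within either. Mir9-3 took 80.9% and 78.3% of the counts on the miR-9 genes.

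The miR-124 genes were close to the limit of the counts. Mir124a-1 had 12 counts in replicate 1 and 4 in replicate 2, 3.16 CPM (1.63 to 5.53) and 1.57 CPM (0.427 to 4.01). Mir124a-2 had 5 and 1 counts, 1.32 CPM (0.428 to 3.08) and 0.391 CPM (0.00991 to 2.18). Mir124a-3 had 0 counts in replicate 1, with an exact interval up to 0.972 CPM (the limit of 3 counts is 0.791 CPM), and 4 in replicate 2, 1.57 CPM (0.427 to 4.01). In replicate 1 the intervals of Mir124a-1 and Mir124a-3 did not overlap, while those of Mir124a-2 overlapped both. In replicate 2 all miR-124 intervals overlapped, so no order among these loci held in both libraries. The summed level of the miR-124 genes was 4.00 ± 0.678 CPM (SD, n = 2), against 88.5 ± 27.6 CPM for the miR-9 genes.

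**Figure D1:**
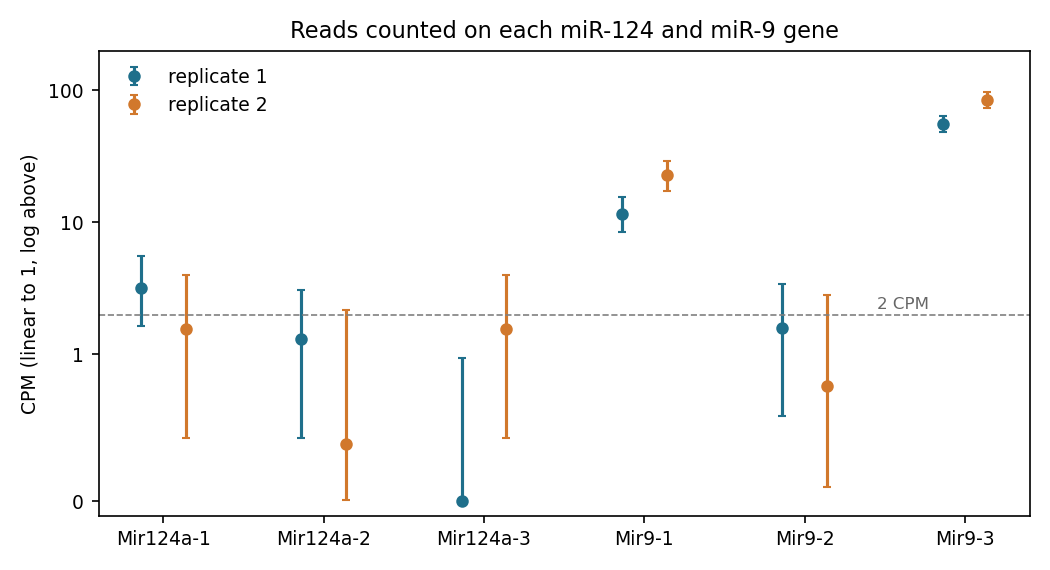
CPM of each gene (vertical axis, linear up to 1 and logarithmic above) in replicate 1 (blue) and replicate 2 (orange), with 95% exact binomial intervals for counting error as bars; the dashed line is the detection minimum of 2 CPM. Mir9-3 and Mir9-1 lie above the line in both libraries, and the other genes have intervals that reach below it.

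With a minimum of 2 CPM in each library, Mir9-1 and Mir9-3 were detected, 2 of the 6 genes (33.3%), and 19.3% of all miRNA genes passed the same minimum. All miR-124 genes and Mir9-2 missed it in at least 1 library. At 1 CPM, 3 of the 6 passed, Mir124a-1 being the third. The median of the 6 mean levels was 1.77 CPM, while the median over all miRNA genes was 0. Scaled by hairpin length the order began alike, with Mir9-3 at 62.1 and 93.9 CPM per 100 bases in replicates 1 and 2, and Mir9-1 at 13.0 and 25.5. By the same measure Mir124a-1 stood at 3.72 and 1.84, Mir9-2 at 2.20 and 1.09, Mir124a-2 at 1.21 and 0.359, and Mir124a-3 at 0 and 2.30. For neighbours in this order among the last 4 genes, the counting intervals overlapped in both libraries.

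The counts are small beside the reads that the tables give to no gene because they mapped to several places. Such multimapping reads numbered 3629983 in replicate 1, 26.3% of its 13791106 reads, and 2714981 in replicate 2, 37.5% of its 7239133 reads. In replicate 1 they were 0.957 times as many as the reads counted on all miRNA genes, and in replicate 2 they were 1.06 times as many. The 279 and 285 reads on the 6 genes equal 0.00769% and 0.0105% of the multimapping reads. One thousandth of the multimapping reads, 3629 and 2714 reads, would already be 13.0 and 9.53 times the total of the 6 genes. The tables do not say which sequences the multimapping reads hold. How many of them come from miR-124 or miR-9 was not tested, and the limit of 3 counts for a gene at 0 covers only reads that map to 1 place.

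How far a read can tell the miR-9 loci apart was read from the reference sequence. The sequences of the miR-124 loci were not analysed here. Every 22-base window of each hairpin was searched for, on both strands, in all 2202 annotated miRNA genes, with genes that overlap each other counted as 1 place. Mir9-3 had 60 of 69 windows found nowhere else, Mir9-1 had 44 of 68 and Mir9-2 had 27 of 51. The first 8 windows of Mir9-1 begin before the annotated start of Mir9-2. They count as found nowhere else although no differing base between these 2 loci was seen there, and the other window lengths used below meet the same edge. Some windows hold at least 15 bases of a mature arm. Of these, 22 of 31 were found nowhere else for Mir9-3, 7 of 31 for Mir9-1 and 6 of 30 for Mir9-2. Windows that start at the first base of an arm were not among those found nowhere else, since each lay at all 3 loci. Each hairpin had 9 windows found at all 3 loci. Mir9-1 and Mir9-2 had a further 15 windows each at 1 other place, and Mir9-3 had none of that kind. The search covered annotated hairpins and not the rest of the genome, and the reference is the C57BL/6J sequence, so CAST/EiJ alleles were not analysed here.

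**Figure D2:**
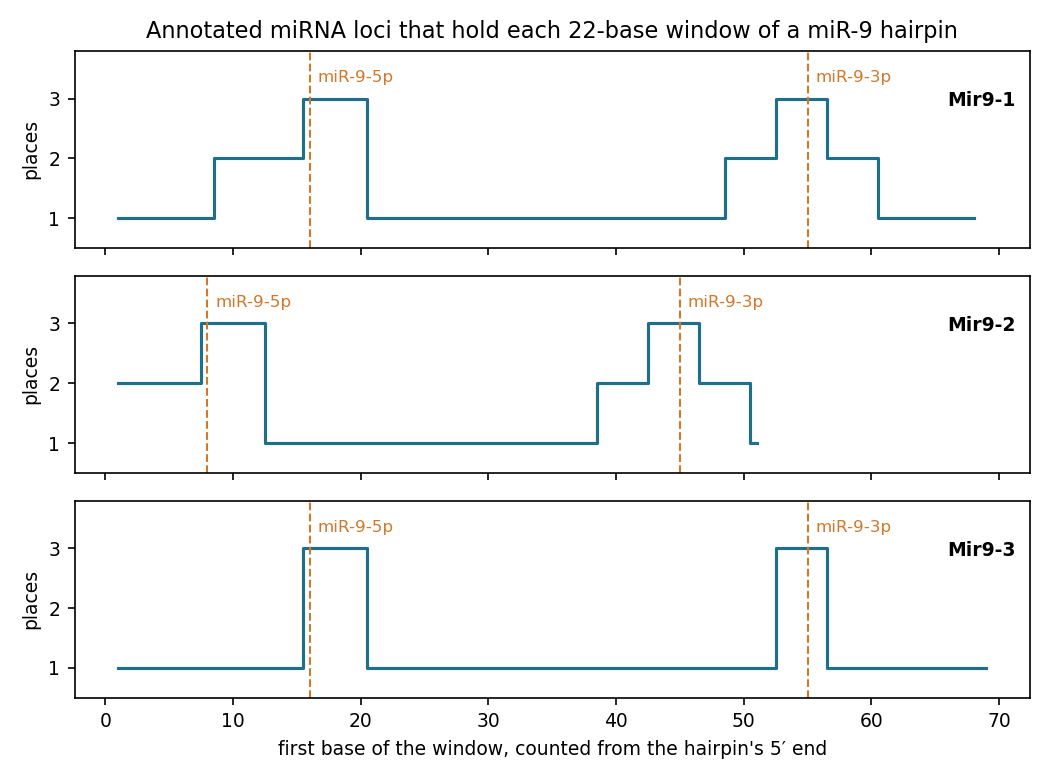
Number of annotated miRNA loci (vertical axis) that hold each 22-base window of the Mir9-1, Mir9-2 and Mir9-3 hairpins, against the first base of the window (horizontal axis); dashed lines mark where the arms begin. Around both arms windows lie at all 3 loci, and Mir9-1 and Mir9-2 have shoulders at 2 loci that Mir9-3 lacks.

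The same can be seen base by base in the hairpins above. An exact copy of either arm, 23 bases for miR-9-5p and 22 for miR-9-3p, was found at 2 other places for every locus. A miR-9-5p read from Mir9-3 was found nowhere else once it started 1 base early, at 24 bases, because the base before the arm differs there. From Mir9-1 it took 8 bases on that side, but only because the annotated hairpin of Mir9-2 ends there. Up to that end the bases are the same at both loci, so no difference between them was seen on that side. On the other side of the arm all loci continue with gug and part at the base after it, so 4 more bases (27 in all) made the read locus-specific at each. For miR-9-3p, 2 bases past the 3′ end (24 in all) were enough at Mir9-3, while Mir9-1 and Mir9-2 needed 6 (28 in all). Mir9-3, the locus with the most counts, needed the fewest extra bases except past the 3′ end of miR-9-5p, where all loci needed 4. Past the 3′ end of both arms Mir9-1 and Mir9-2 needed the same number. Mir9-1 nevertheless had 7.33 and 29 times the counts of Mir9-2 in replicates 1 and 2. Whether the bases needed bear on the counts was not tested.

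Set against the windows, the order of Mir9-3 and Mir9-1 depended on the length chosen. Mir9-3 had 4.82 and 3.72 times the counts of Mir9-1 in replicates 1 and 2. Per arm window of 22 bases found nowhere else, Mir9-3 had 9.64 and 9.82 counts and Mir9-1 had 6.29 and 8.29, a ratio of 1.53 and 1.18. With 26 bases the ratio was 2.92 and 2.25, and with 20 bases, where Mir9-1 had only 2 such windows, it turned to 0.688 and 0.532. At 18 bases Mir9-1 and Mir9-2 had none. Mir9-2, with nearly as many such windows as Mir9-1, had 1.00 and 0.333 counts per 22-base window. Mir9-1 was above Mir9-2 by 6.29 and 24.9 times per window at 22 bases, and was also above it at 20 and 26 bases. Reads are not spread evenly over windows, so these are descriptions, and whether the loci differ in transcription was not tested.

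The strand columns affected Mir9-1 and Mir124a-3. Mir9-1 lies wholly within Gm25641, a miRNA gene on the minus strand at chr3:88215589-88215696, whose arms RefSeq calls miR-9b. In the column that ignores strand Mir9-1 had 0 counts in both libraries, since reads there belong to both genes. Gm25641 had 0 counts on its own strand in both libraries, and its opposite-strand column held the 44 and 58 reads of Mir9-1. The miR-9b arms resemble those of miR-9 and are shown with the seed in capitals:
mmu-miR-9b-5p: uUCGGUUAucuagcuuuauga
mmu-miR-9b-3p: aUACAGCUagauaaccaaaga

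Over 21 bases compared without gaps, miR-9b-5p had 2 mismatches to miR-9-5p and miR-9b-3p had 4 to miR-9-3p. The seeds differ, so miR-9b would form a separate seed group. No reads that map to 1 place were counted on the minus strand of Mir9-1, Mir9-2 or Mir9-3. The miR-9b-5p arm is listed at 2 loci and the miR-9b-3p arm at 3, so an exact copy of either maps to several places. The absence of counts therefore cannot decide whether miR-9b was present.

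The libraries were compared for all genes with at least 10 counts in sum, by an exact binomial test (two-sided) of how each gene's reads divide between them, with Benjamini-Hochberg adjustment over 507 genes. The test covers counting error and compares these libraries, not conditions. Mir9-3 was 1.51-fold higher in replicate 2 (adjusted p = 5.9e-05, exact binomial test). Mir9-1 was 1.96-fold higher in replicate 2 (adjusted p = 0.00196, exact binomial test). Of all tested genes 52.1% differed in this test, 26.8% being higher in replicate 2 and 25.2% higher in replicate 1, so a difference of this kind is common in these libraries. With edgeR's exact test at the common dispersion of the libraries (a coefficient of variation of 0.377), neither gene passed. That dispersion was estimated from these same 2 libraries taken as replicates, so the difference under test is part of it. For this reason edgeR's test cannot decide whether the genes differ.

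Mir124a-1, with 16 counts in sum, was 2.02-fold higher in replicate 1 and did not pass (adjusted p = 0.415, exact binomial test). The other miR-124 genes and Mir9-2 had 4 to 8 counts in sum and were not tested. Mir124a-2 and Mir9-2 had the higher CPM in replicate 1 and Mir124a-3 in replicate 2. The share of multimapping reads among all reads was higher in replicate 2, as were Mir9-1 and Mir9-3. Unmapped reads were 41.3% of all reads in replicate 1 and 20.7% in replicate 2. Set against counted reads, multimapping reads were 0.957 times as many in replicate 1 and 1.06 times in replicate 2. The part of unmapped or multimapping reads in the difference was not tested.

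The host transcripts of 2 members carry a second miRNA gene. Whether its counts follow the transcription of the member was not tested. Mir3093 lies 340 bases upstream of Mir9-1 in Gm3764, at chr3:88215171-88215257. Its arms were each found at 1 locus in the RefSeq table and are shown as the counterpart to the shared miR-9 arms:
mmu-miR-3093-5p: cGCACCCCgcggagcucacacu
mmu-miR-3093-3p: uGUGGACAccgugggagguugg

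Mir3093 had 309 and 198 counts, 81.4 and 77.5 CPM, and the libraries did not differ beyond counting error (adjusted p = 0.713, exact binomial test). Its CPM was 7.02 and 3.41 times that of Mir9-1. Mir3078 lies 443 bases downstream of Mir124a-1 in Mir124a-1hg, at chr14:64591185-64591271, and had 83 and 90 counts, 21.9 and 35.2 CPM. That was 6.92 and 22.5 times the CPM of Mir124a-1, and 1.61-fold higher in replicate 2 (adjusted p = 0.00426, exact binomial test). These neighbours fall outside the rule for named genes and were chosen for their position after their counts had been seen. Mir9-1 was higher in replicate 2, where Mir3093 did not pass the test. Mir124a-1 had its higher CPM in replicate 1 and Mir3078 in replicate 2.

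Most genes of other neuronal microRNAs had higher levels in the same tables, with Mir218-1 below Mir9-3 as the exception in the sets used here. The first set is of miR-128, miR-129, miR-138 and miR-218, each with 2 loci. All 8 genes were detected, from 20.1 CPM for Mir218-1 to 5824 CPM for Mir128-1, with a median of 1631 CPM. Their arms are arranged differently from those of miR-9. For Mir129-1 the table listed only its shared arm. For Mir129-2 the first 18 bases of miR-129-2-3p were also found at another annotated miRNA gene, though its full sequence is listed at 1 locus. By full listed sequence, 7 of the 8 genes had 1 arm shared with the other locus and 1 arm private to the gene. The miR-128 genes show this, first the arm shared by both loci and then the private arms, with the seed in capitals:
mmu-miR-128-3p: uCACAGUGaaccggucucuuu
mmu-miR-128-1-5p: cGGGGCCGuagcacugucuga
mmu-miR-128-2-5p: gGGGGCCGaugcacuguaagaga

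Mir128-1 had 16558 and 18612 counts and Mir128-2 had 5617 and 5935. The tables do not say which arm these reads came from. miR-128-3p is the arm known as a brain regulator of neuronal excitability. The mean CPM of Mir128-1 was 83.0 times that of Mir9-3, the highest member.

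The second set is of neuronal microRNAs with 1 locus. The 12 genes ran from 78.5 CPM for Mir153 to 71768 CPM for Mir139, with a median of 1292 CPM. All 11 of them with an entry in the RefSeq table had no shared arm. The activity-induced Mir132 was at 11607 ± 8004 CPM (SD, n = 2), the dendritic Mir134 at 1157 ± 248 CPM and Mir137, a regulator of neuronal maturation, at 4100 ± 1110 CPM. Mir9-3 at 70.2 ± 20.3 CPM lay below the mean of every gene of this set, and its library values overlapped only those of Mir153, which were 29.8 CPM in replicate 1 and 127 CPM in replicate 2. These sets were put together with results of these libraries known, so their levels are a description.

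**Figure D3:**
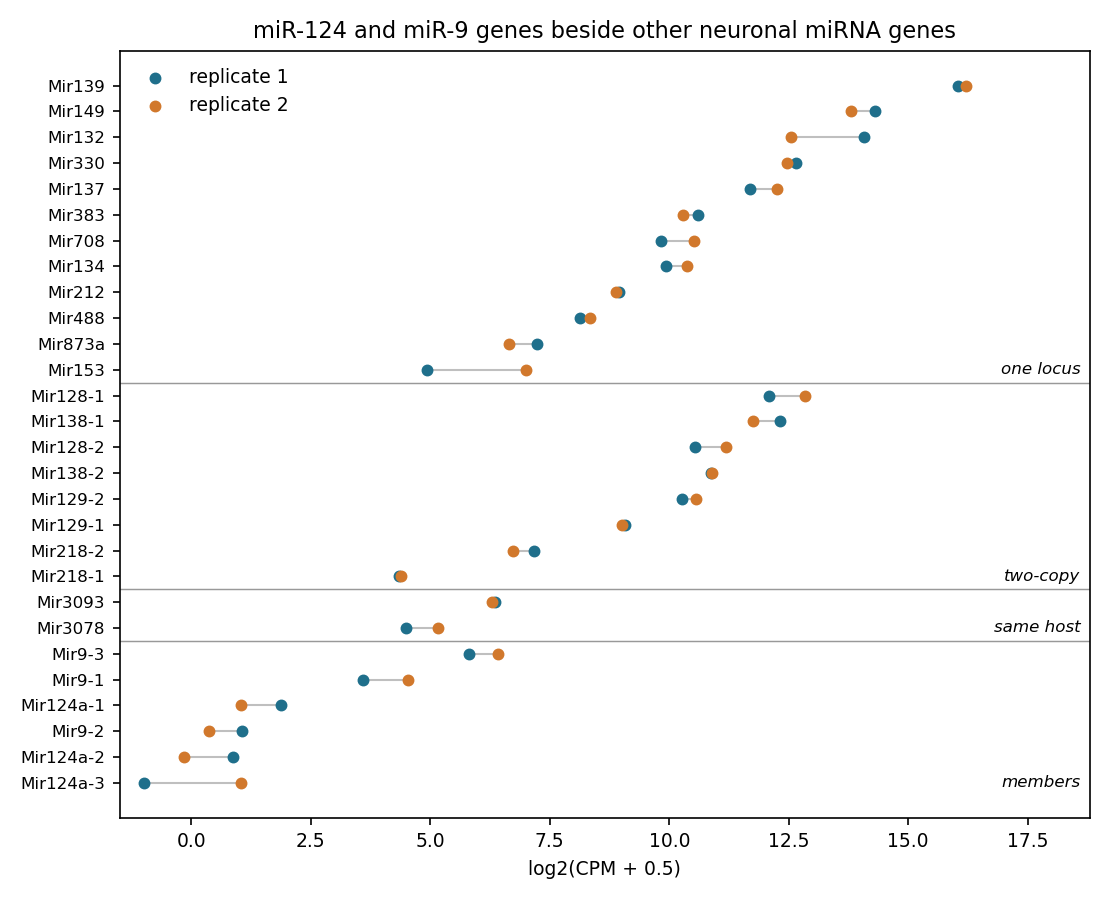
log2(CPM + 0.5) of the miR-124 and miR-9 genes, of the miRNA genes in the same host transcripts, and of neuronal miRNA genes with 2 loci or 1 locus, in replicate 1 (blue) and replicate 2 (orange). All members lie below 7 on this scale, and all but 4 of the genes with 2 loci or 1 locus lie above 7 in both libraries.

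Over all miRNA genes, detection was set beside the number of arms that a gene shares. The RefSeq table held mature arms for 1022 genes, among them the 3 miR-9 genes. Of 927 genes with no arm found at another locus, 337 were detected (36.4%) and 326 had 0 counts in both libraries. Of 57 genes with some arms shared and some private, 39 were detected (68.4%), with a median of 29.1 CPM. Of 38 genes with all listed arms shared, 6 were detected (15.8%) and 29 had 0 counts in both libraries. Among all 2202 miRNA genes, with or without listed arms, 19.3% were detected and 1444 had 0 counts in both libraries. Mir9-3 and Mir9-1 were 2 of those 6 and ranked 4th and 6th of the 38, and Mir9-2 ranked 7th with a mean of 1.18 CPM.

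A further split was by number of loci. The table held 23 genes with an arm at 3 or more loci. Mir9-1 and Mir9-3 were the only 2 detected among them, and 6 had any count. The miR-9 genes took 98.5% and 99.3% of the 266 and 278 counts on the 23 genes. Among the others the miR-199 genes, marks of mesenchymal cells and named after their values were seen, had at most 1 count in a library. The table is not complete, so a gene listed with private arms may have a copy that the table lacks, and no test was made over these genes. A gene with only 1 listed arm, such as Mir129-1, may also fall among those with all arms shared because its other arm is not listed.

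**Figure D4:**
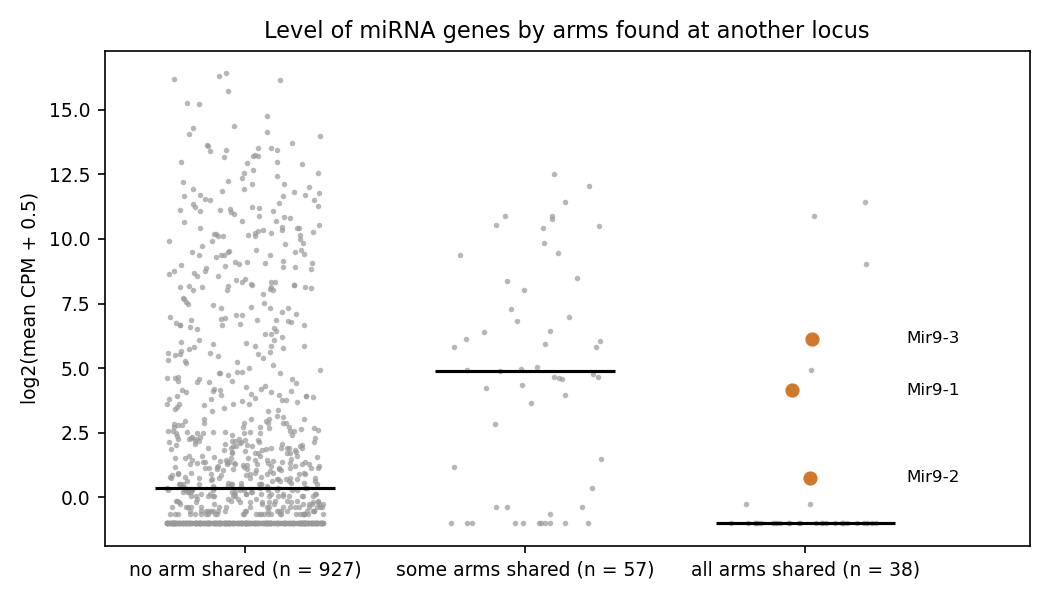
log2(mean CPM + 0.5) of 1022 miRNA genes (grey points, spread sideways for visibility), by whether none, some or all of their mature arms are found at another locus; black lines are medians and orange points the miR-9 genes. The median of genes with all arms shared is that of 0 counts, and Mir9-3 and Mir9-1 lie well above it.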

How the data were processed

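The authors deposited 1 table of raw counts per library, with no normalization and no header line: reads per miRNA gene on either strand, on the gene's strand and on the opposite strand. Per the accompanying text deposited with them, they used mm10 and GENCODE M21. For the aligner, counter and trimming: not given in the sources used here. Counts from the gene-strand column were used, as the larger of the stranded ones. Rows for reads given to no gene stayed out of totals and tests, which left 27.5% and 35.3% of reads. CPM are counts per 1000000 on miRNA genes.

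Design and replicate numbers come from the labels. The members, gene lists and tests were chosen with earlier results of these data known. The rule for named genes took the members, miRNA genes on their opposite strand or with the same mature sequence, and the neuronal sets with 2 loci or 1 locus. With 1 group there is no contrast for edgeR's quasi-likelihood test, so an exact binomial test was used, tested on simulated data. Alternatives were other minimums, columns, denominators, scalings, window lengths and edgeR's exact test. Sequences are from RefSeq (GRCm38.p6), matched by symbol and position, and the windows were searched in GENCODE M21 transcripts. No genome sequence was used. Software was Python 3.11.15, scipy 1.17.1, Biopython 1.88, edgeR 4.0.16 and DESeq2 1.42.0.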

Additional observations from a re-analysis of the deposited data

Results flagged for a closer look

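Mir124a-3 had 11 counts on the opposite strand in replicate 1, in a column that the levels above do not use, and 0 there in replicate 2. In the same library it had 0 counts on its own strand, so that the column ignoring strand lists it at 11. The count is above the 3 that a count of 0 allows. No annotated miRNA gene lies on that strand. Among all genes, 47 without such a partner had an opposite-strand read in either library, 136 reads in replicate 1 in all. Mir124a-3 was the third highest of them there, where the highest had 34, and 5 genes of this kind had more than 3 opposite-strand counts and 0 on their own strand in 1 library. No other member had an opposite-strand count.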

How the results depend on the processing

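In the column that ignores strand, the summed miR-124 level was 5.79 CPM, with the opposite-strand reads of Mir124a-3 in it, and 1 member, Mir9-3, was detected in place of 2. With all reads as the denominator the summed levels were 1.24 per 1000000 for miR-124 and 28.6 for miR-9, and with multimapping reads added to it 2.00 and 43.8, which follows from the larger totals. Leaving out either replicate gave 3.52 to 4.48 CPM for miR-124, 69.1 to 108 CPM for miR-9 and 2 to 3 members detected. The libraries differed at 264 genes in the exact binomial test, and at 251 to 268 without the count filter or with TMM or DESeq2 scaling. With edgeR's exact test at the common dispersion far fewer genes differed. The log2 ratios of replicate 1 over 2, -0.96 for Mir9-1 and -0.59 for Mir9-3, did not pass. That dispersion came from the same libraries taken as replicates, so this alternative cannot decide which genes differ. Of genes with no shared arm, 43.3% were detected at 1 CPM and 26.5% at 10 CPM, and 38.7% to 40.6% with either replicate left out. Genes with all arms shared stayed at 13.2% to 15.8% under every alternative run. Windows of 18, 20 or 26 bases kept the order of the miR-9 loci by all windows, with 56 to 64 found nowhere else for Mir9-3, 40 to 48 for Mir9-1 and 23 to 31 for Mir9-2. The counts of Mir9-3 over Mir9-1 per arm window, 1.53 and 1.18 at 22 bases, turned to 0.688 and 0.532 at 20 bases and were 2.92 and 2.25 at 26, lengths added after seeing the data for this ratio. No paired analysis was possible because the series has a single group. The miR-124 genes and Mir9-2 had 0 to 12 counts a library, so their levels are imprecise. Why so few reads were counted on them was not tested.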

Other observations

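The 4 other genes with all listed arms shared that were detected each have 2 loci; apart from Mir129-1 they were chosen after their values were seen. Mirlet7c-2, of the let-7 family that rises as cells differentiate, had 9026 and 8023 counts, and Mir219a-2, which drives oligodendrocyte maturation, had 11435 and 1898. Mir129-1 had 2028 and 1314 counts and Mir3074-1 had 102 and 83. Of these, Mirlet7c-2 has both arms listed, and the others 1 arm each.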
